A study of Mus musculus with 8 samples.

Results

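The genes described here are 10 genes of cell adhesion in mouse embryonic stem (ES) cells. They are the cadherins Cdh1, Cdh2, Cdh3 and Cdh11, the catenins Ctnna1, Ctnna2, Ctnnb1 and Ctnnd1, the plaque protein Jup, and the adhesion molecule Epcam. They were found by symbol among the 18193 genes of the array, and all 10 were measured. Of the 34945 probe sets annotated to exactly 1 gene symbol, 21 belonged to these genes. Each gene was represented by its brightest probe set, chosen by its mean over the 8 arrays, so that mean is only a description. The gene names themselves were selected on their family, with earlier results of these data known. A probe set is a group of short probes read together as 1 value.

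Adherens junctions join neighbouring cells. A cadherin spans the membrane, binds the same cadherin on the next cell, and carries catenins on its inner side: p120-catenin (Ctnnd1) keeps it at the surface, beta-catenin (Ctnnb1) or plakoglobin (Jup) sits on its tail, and alpha-catenin (Ctnna1, Ctnna2) links the complex to actin. E-cadherin (Cdh1) holds mouse ES cell colonies together, while N-cadherin (Cdh2) is known from neural and mesenchymal cells and from cells leaving the epithelial state.

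The study asked about the role of Jmjd2b and Jmjd2c, histone demethylases whose symbols on the array are Kdm4b and Kdm4c, in the identity of ES cells. All groups were male ES cells, strain 129S4/Svjae, grown with leukemia inhibitory factor (LIF) in the medium. They were infected with lentivirus carrying a short hairpin RNA (shRNA), selected with puromycin and passaged, the control included. The hairpin was directed against GFP in 3 control samples, against Jmjd2b in 3 samples and against Jmjd2c in 2 samples. The labels do not say how many hairpins or clones stood behind a group. Nothing says that a group's samples were infected or cultured apart from each other, so the p-values measure only how these samples spread, and that spread may be technical.

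Each sample gave 1 array. The number of arrays limits the precision. The array medians lay between 44.7 and 46.6 intensity units. Kdm4b was 421, 339 and 643 with the GFP hairpin and 50.3, 29.3 and 17.0 with its own. Kdm4c was 1332, 1300 and 1210 with the GFP hairpin and 142 and 469 with its own. In each case the knockdown arrays lay below all controls. So did the other enzyme's transcript, without passing the limma test: Kdm4c was 752, 800 and 650 with the Jmjd2b hairpin (-0.79, adjusted p = 0.102), and Kdm4b 245 and 285 with the Jmjd2c hairpin (-0.74, adjusted p = 0.178). The 10 ES cell markers checked, among them Pou5f1 and Sox2, were above 100 in every array, which does not mean that they were unchanged. By the limma test 7 of them fell in the Jmjd2b and 4 in the Jmjd2c knockdown, as given below. Arrays fell into types and sets that follow the groups only in part. Control arrays 1 and 2 and Jmjd2b array 2 had 412 to 455 values at exactly 1 and at most 2 below it, here called a floor, while the others had 172 to 241 below 1. Among the others, control 3 and Jmjd2b 1 had 0.448% of values identical, and Jmjd2b 3 and both Jmjd2c arrays 0.588% to 0.605%, beside at most 0.0776% for any other pair, and arrays above 0.3% were joined as a set. The set that holds both Jmjd2c arrays has no control in it. Where the array set is a block, the arrays with the floor, which share few values, formed 1 block. That fit reaches from the Jmjd2c arrays to the controls only through the Jmjd2b arrays, in an indirect comparison. Results that change with these sets are given beside their values. A comparison with the controls within 1 array type has a single array on 1 side, assumed to vary like the others, so a call lost there says little.

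Against the GFP hairpin, Cdh2, Cdh11, Ctnnd1 and Epcam rose in the Jmjd2b knockdown, and Cdh2 rose in the Jmjd2c knockdown. None of the 10 genes fell in either. A change is a difference of group means of log2(intensity + 16), where adding 16 damps the noise of dim probe sets and understates their change. It is given with its standard error (SE). A gene passed the test at a limma p-value under 0.05 after Benjamini-Hochberg adjustment over all 18193 genes. Over all genes, 11.6% rose and 12.9% fell in the Jmjd2b comparison (24.4% in either direction), beside 4 rises and 0 falls among the 10. In the Jmjd2c comparison 4.31% of all genes rose and 5.28% fell, beside 1 rise and 0 falls. Calls were more common among the 9581 brighter genes, whose highest group mean exceeded the median level of all genes. Tested alone, 4049 of these were called in the Jmjd2b comparison, beside 3 of the 8 adhesion genes among them. In the Jmjd2c comparison 2026 were called, beside 2 of the 8. A gene could enter this class by its rise alone, as Cdh2 did (mean 51.4 in the controls, median level of all genes 103). These counts are thus not independent of the changes tested. They do not show the adhesion genes to be called more often than others of the class, and cannot decide it. The median change of the 10 genes was 0.47 in the Jmjd2b comparison and 0.19 in the Jmjd2c comparison, beside -0.03 and -0.02 over all genes. Both comparisons share the 3 control arrays, so they are not independent of each other.

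**Figure D1:**
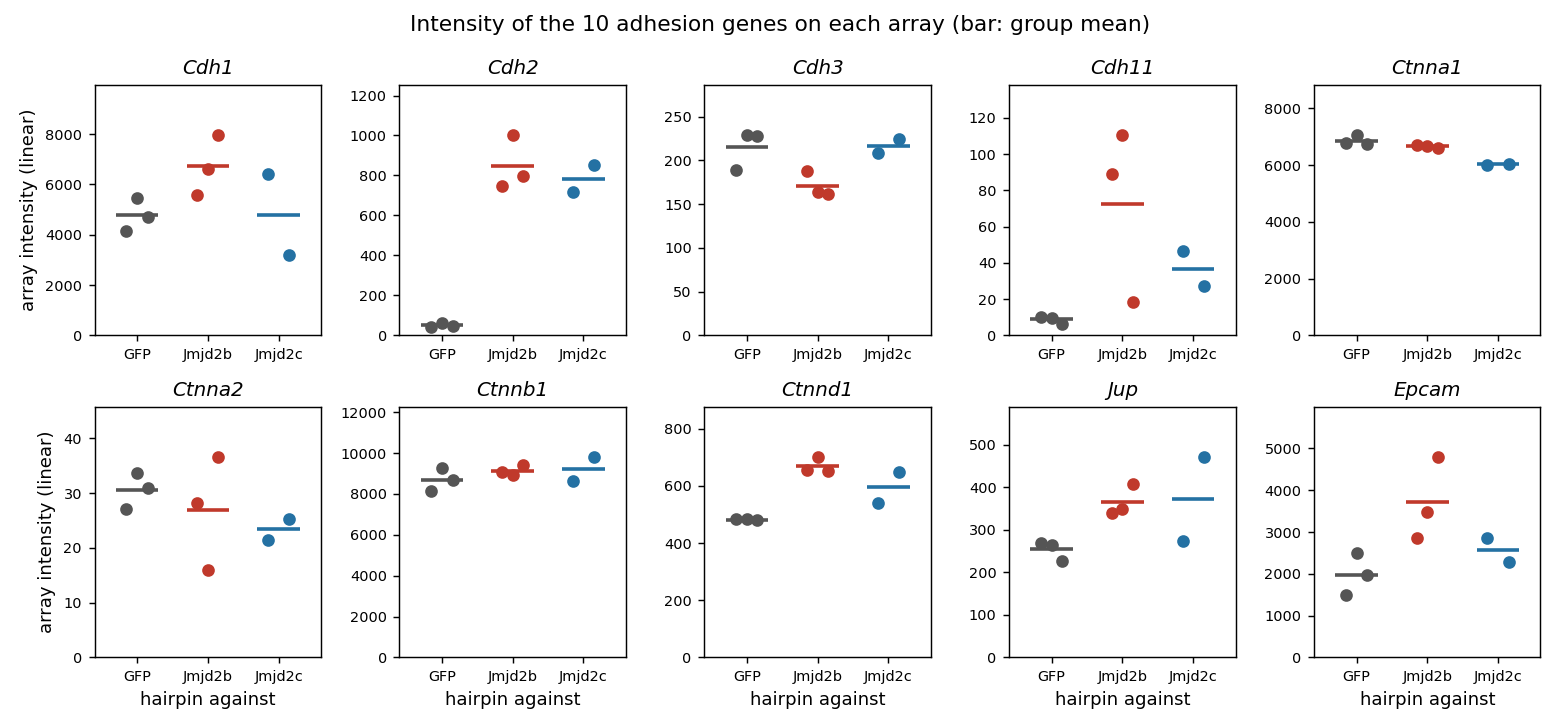
Array intensity (linear axis from 0) of each of the 10 genes, with 1 point per array, in 3 GFP-hairpin, 3 Jmjd2b-hairpin and 2 Jmjd2c-hairpin samples and a bar at each group mean. Cdh2 sits between 43.7 and 63.5 in the controls and between 717 and 1002 in all 5 knockdown arrays, while Ctnnb1 overlaps between all groups.

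Cdh2, N-cadherin, had the largest change of the 10 genes in both comparisons. Its probe set 1418815_at read 43.7, 63.5 and 47.2 with the GFP hairpin, 748, 1002 and 798 with the Jmjd2b hairpin and 717 and 852 with the Jmjd2c hairpin. All 5 knockdown arrays lay far above all controls, and the arrays of the knockdown groups overlapped each other. The mean of the Jmjd2b knockdown was 16.5-fold and that of the Jmjd2c knockdown 15.3-fold the control mean of 51.4 ± 10.5 (SD, n = 3). On the log2 scale the change was 3.68 ± 0.16 in the Jmjd2b comparison (limma adjusted p = 7.26e-06). It was 3.58 ± 0.18 in the Jmjd2c comparison (limma adjusted p = 5.60e-05). Among all 18193 genes these were the 27th largest rise in the Jmjd2b comparison and the 5th largest in the Jmjd2c comparison. In bulk RNA, more cells with the transcript and more transcript per cell cannot be told apart.

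A second, dimmer Cdh2 probe set, 1449244_at, gave 16.3, 26.7 and 21.6 with the GFP hairpin. It read 380, 485 and 428 with the Jmjd2b hairpin and 316 and 457 with the Jmjd2c hairpin. Its changes, 3.58 ± 0.18 and 3.41 ± 0.20, were close to those of the brighter one. With the array set as a block the Cdh2 changes were 3.76 in the Jmjd2b comparison and 3.73 in the Jmjd2c comparison (limma adjusted p = 4.29e-04 and 0.0411). Among the arrays without the floor alone, which leaves 1 control, the Jmjd2c change was 3.66 and no longer passed (limma adjusted p = 0.0888). The difference between the knockdowns was -0.11, with a 95% interval from -0.51 to 0.30.

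Markers of other cell types were set beside the rise of Cdh2, a gene that several of those cells express. Summed intensities of 8 primitive endoderm markers were 2414 to 2665 in the controls, 4174 to 4969 in the Jmjd2b knockdown and 2788 to 3270 in the Jmjd2c knockdown, and 3 and 1 of them rose. Most of that sum was Sparc, which rose in the Jmjd2b knockdown (mean 2312 in the controls and 4215 there), as did Foxa2 and Dab2. The lineage factors Gata4, Gata6, Sox17 and Sox7 did not pass in either comparison. Means in the controls, the Jmjd2b and the Jmjd2c knockdown were 25.6, 23.9 and 22.9 for Gata4 and 29.9, 22.6 and 14.0 for Gata6. They were 31.4, 28.4 and 26.3 for Sox17 and 23.5, 14.1 and 57.7 for Sox7, whose Jmjd2c arrays read 24.1 and 91.4. Of 7 neural markers measured 2 rose in the Jmjd2b and 1 in the Jmjd2c comparison, with sums of 1151 to 1358, 1227 to 2138 and 987 to 1917, and 0 fell. Pax6 rose from a mean of 33.4 in the controls to 118 and 159, and Nes from 49.8 to 469 in the Jmjd2b knockdown. In the Jmjd2c arrays Nes read 198 and 53.5 and did not pass. Sox1 and Tubb3 had lower means in the Jmjd2b knockdown without passing. Their means in the controls, the Jmjd2b and the Jmjd2c knockdown were 142, 66.3 and 97.1 for Sox1 and 397, 242 and 404 for Tubb3. Neurod1, Map2 and Dcx did not pass in either comparison. Sums of 7 mesoderm markers were 192 to 222, 236 to 520 and 220 to 255, with 2 and 0 rises and 0 falls. The rises were Mixl1, from 13.1 to 168, and Gsc, from 14.4 to 61.7, where Jmjd2b array 3 read only 61.8 and 16.3. Sums of 12 fibroblast markers were 658 to 717, 420 to 442 and 440 to 516, with 2 and 0 rises and 2 falls in each. The rises were Col1a1, from 12.5 to 55.9, and S100a4, from 15.25 to 38.8. The falls were Pdgfrb, from 378 to 137 and 198, and Thy1, from 114 to 36.0 and 35.25. For 8 trophectoderm markers the sums were 3492 to 4037, 3480 to 4381 and 3442 to 4282, with 3 rises and 3 falls in the Jmjd2b comparison and 1 of each in the Jmjd2c comparison. Tfap2c made up most of this sum (mean 3219 in the controls). In the Jmjd2b knockdown Cdx2 rose from 4.24 to 442, Eomes from 155 to 870 and Gata3 from 4.59 to 43.5. The falls there were Tfap2c, to 2358, Krt7, from 152 to 71.0, and Ascl2, from 126 to 64.2. In the Jmjd2c knockdown Cdx2 rose to 23.6 and Ascl2 fell to 43.3. The neural marker Dcx and the fibroblast marker Postn stayed below 16 in every array. The sums of the 10 ES cell markers were 67150 to 68991, 50505 to 53368 and 54691 to 55525, with 7 falls in the Jmjd2b and 4 in the Jmjd2c comparison. Klf4 (means 6357, 2182 and 2749), Esrrb (2751, 938 and 1431), Zfp42 and Tdgf1 fell in both. Nanog (5684, 3615 and 4292), Sox2 and Dppa5a fell in the Jmjd2b comparison alone. Pou5f1, Utf1 and Dppa4 did not pass in either. The part of these differences in the Cdh2 result was not tested.

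Cdh1, E-cadherin, is the cadherin by which ES cells hold together. Its only probe set, 1448261_at, read 4137, 5462 and 4723 with the GFP hairpin, 5588, 6614 and 7960 with the Jmjd2b hairpin and 6404 and 3183 with the Jmjd2c hairpin. All Jmjd2b arrays lay above all controls, whereas the Jmjd2c arrays lay 1 above and 1 below the whole control range. The Jmjd2b change was 0.49 ± 0.23, with a 95% interval from -0.02 to 0.99, and did not pass (limma adjusted p = 0.155). It passed when both Jmjd2c arrays were left out of the model (limma adjusted p = 0.0178), or either array 1 or array 2 of them (0.0181 and 0.0178). The Jmjd2c change was -0.07 ± 0.25, with a 95% interval from -0.63 to 0.49 (limma adjusted p = 0.909).

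The Jmjd2c arrays differed 2.01-fold in Cdh1. Over 9581 genes whose highest group mean exceeded the median level of all genes, the median ratio of these 2 arrays, higher over lower, was 1.20, and 7.15% of those genes had a ratio larger than that of Cdh1. Without Jmjd2c array 1 the Cdh1 change against the controls was -0.57, and without array 2 it was 0.43. Between the knockdowns it was -0.56, with a 95% interval from -1.12 to 0.01. Without Jmjd2c array 1 that difference was -1.06 and passed (limma adjusted p = 0.0162). The Cdh1 level in the Jmjd2c knockdown therefore has no settled direction.

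Cdh3, P-cadherin, is the neighbour of Cdh1 on chromosome 8 in RefSeq's gene order. Its probe set 1426673_at gave 189, 229 and 227 with the GFP hairpin, 188, 164 and 162 with the Jmjd2b hairpin and 208 and 224 with the Jmjd2c hairpin. The Jmjd2b arrays lay just below the controls, and the Jmjd2c arrays lay within their range. The Jmjd2b change was -0.30 ± 0.13 and did not pass (limma adjusted p = 0.134). The Jmjd2c change was 0.01 ± 0.15 (limma adjusted p = 0.978).

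Cdh11, a cadherin known from mesenchymal cells, was dim in the controls, where its probe set 1450757_at read 10.2, 9.69 and 6.50. It read 89.0, 110 and 18.6 with the Jmjd2b hairpin and 46.4 and 27.3 with the Jmjd2c hairpin. Every knockdown array lay above every control, but the Jmjd2b arrays spread 5.93-fold, with array 3 far below the other two. The Jmjd2b change was 1.64 ± 0.40 and passed (limma adjusted p = 0.0149). It was lost without control array 3 (1.57), Jmjd2b array 1 (1.42) or Jmjd2b array 2 (1.29), with the mean of both probe sets (0.77) and within the arrays without the floor (1.42, limma adjusted p = 0.323). A smaller added constant of 4 gave 2.29 and a larger one of 64 gave 0.84, since the controls lay below 16.

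In the Jmjd2c comparison the Cdh11 change was 1.07 ± 0.45 and did not pass (limma adjusted p = 0.180). It passed with only the groups compared in the model (limma adjusted p = 0.0298) and without Jmjd2b array 3 (limma adjusted p = 0.0144). The second Cdh11 probe set, 1435120_at, read between 2.23 and 20.7 over all 8 arrays, and its changes were -0.11 and 0.25. The Cdh11 rise therefore rests on 1 probe set of low intensity.

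**Figure D2:**
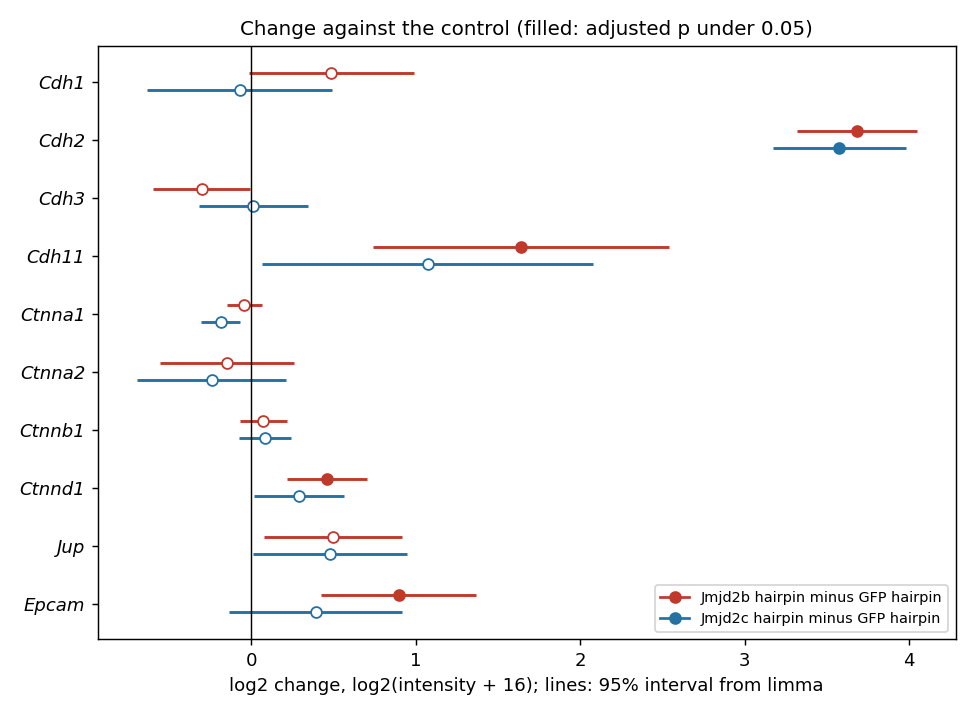
Change of each gene against the GFP hairpin in log2(intensity + 16), with 95% intervals from limma, for the Jmjd2b hairpin (upper, red) and the Jmjd2c hairpin (lower, blue), filled where the adjusted p is under 0.05. Cdh2 stands at 3.68 and 3.58, and Cdh11, Ctnnd1 and Epcam are filled in the Jmjd2b comparison alone, where the difference between the knockdowns did not pass for any of the 3.

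Ctnnd1, p120-catenin, was the catenin that passed. Its probe set 1437448_s_at gave 486, 483 and 479 with the GFP hairpin, 656, 701 and 653 with the Jmjd2b hairpin and 542 and 649 with the Jmjd2c hairpin. The controls differed by a ratio of 1.01, and all 5 knockdown arrays lay above them. The Jmjd2b change was 0.46 ± 0.11 (limma adjusted p = 0.0124), a mean 1.39-fold that of the controls. The call was lost without control array 3 (0.46), without Jmjd2b array 2 (0.43), with the array set as a block (0.49), within each array type (0.52 and 0.44) and with the probe set 1422450_at in its place (0.30). The Jmjd2c change was 0.29 ± 0.12 and did not pass (limma adjusted p = 0.181). Without Jmjd2c array 1 it was 0.42 and passed (limma adjusted p = 0.0466).

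Ctnnb1, beta-catenin, did not pass in either comparison. It read 8154, 9249 and 8690 with the GFP hairpin, 9068, 8938 and 9422 with the Jmjd2b hairpin and 8637 and 9808 with the Jmjd2c hairpin. The groups overlapped throughout. The changes were 0.07 ± 0.06 and 0.08 ± 0.07, with 95% intervals from -0.07 to 0.22 and from -0.08 to 0.24. Its other probe sets, 1450008_a_at and 1430533_a_at, gave 0.15 and 0.04 in the Jmjd2b comparison and 0.21 and 0.34 in the Jmjd2c comparison, and none passed.

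Ctnna1, the alpha-catenin of most epithelia, varied little within groups. Its probe set 1437807_x_at gave 6774, 7057 and 6743 with the GFP hairpin, 6709, 6668 and 6592 with the Jmjd2b hairpin and 6004 and 6044 with the Jmjd2c hairpin. The Jmjd2b arrays lay just below the controls and the Jmjd2c arrays below both groups. The Jmjd2c change was -0.19 ± 0.05, a mean of 87.8% of the controls, and missed the threshold (limma adjusted p = 0.0551). It passed after quantile normalization (-0.20, limma adjusted p = 0.0390) and when only the brighter genes were tested (limma adjusted p = 0.0228). The probe set 1448149_at gave -0.20 for it, and 0.01 in the Jmjd2b comparison, where the main probe set gave -0.04 ± 0.05. The much dimmer probe sets 1436631_at and 1437275_at gave 0.007 and -0.07 in the Jmjd2c comparison. In the Jmjd2b comparison they gave 0.40 and -0.17, and none of these passed.

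Ctnna2, the alpha-catenin known from neurons, was dim on every array. It read 27.0, 33.7 and 31.0 with the GFP hairpin, 28.1, 15.97 and 36.6 with the Jmjd2b hairpin and 21.4 and 25.4 with the Jmjd2c hairpin. The Jmjd2b arrays spread across the control range and past it on both sides, while both Jmjd2c arrays lay below the controls. The changes were -0.15 ± 0.18 and -0.24 ± 0.20, and neither passed (limma adjusted p = 0.622 and 0.529).

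Jup, plakoglobin, can take the place of beta-catenin on cadherin tails and is also part of desmosomes. Its only probe set, 1426873_s_at, gave 270, 265 and 227 with the GFP hairpin, 340, 349 and 407 with the Jmjd2b hairpin and 273 and 471 with the Jmjd2c hairpin. All knockdown arrays lay above the controls, Jmjd2c array 1 by little. The Jmjd2b change was 0.50 ± 0.19 and did not pass (limma adjusted p = 0.0842). It passed with both Jmjd2c arrays left out of the model (limma adjusted p = 9.70e-03), or either array 1 or array 2 of them (9.35e-03 and 9.72e-03). The Jmjd2c change was 0.48 ± 0.21 and did not pass (limma adjusted p = 0.199). Without Jmjd2c array 1 it was 0.86 and passed (limma adjusted p = 7.96e-03), and without array 2 it was 0.10.

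Epcam, an adhesion molecule of epithelial cells and ES cells that is not a cadherin, had the largest called rise in the Jmjd2b comparison after Cdh2 and Cdh11. Its probe set 1416579_a_at gave 1487, 2493 and 1974 with the GFP hairpin, 2865, 3470 and 4794 with the Jmjd2b hairpin and 2847 and 2283 with the Jmjd2c hairpin. The Jmjd2b arrays lay above all controls and above both Jmjd2c arrays, of which 1 lay within the control range. The Jmjd2b change was 0.90 ± 0.21 (limma adjusted p = 0.0123), a mean 1.87-fold that of the controls. It kept its call without any single array, at 0.70 to 1.07, but lost it with the array set as a block (0.71, limma adjusted p = 0.0771) and within each array type (0.84 and 0.90). The dimmer probe set 1447899_x_at gave 0.43 ± 0.16 (limma adjusted p = 0.0861). In the Jmjd2c comparison the main probe set gave 0.39 ± 0.24 and did not pass (limma adjusted p = 0.365). Under the array set block, which compares these groups only indirectly, it gave -0.20.

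**Figure D3:**
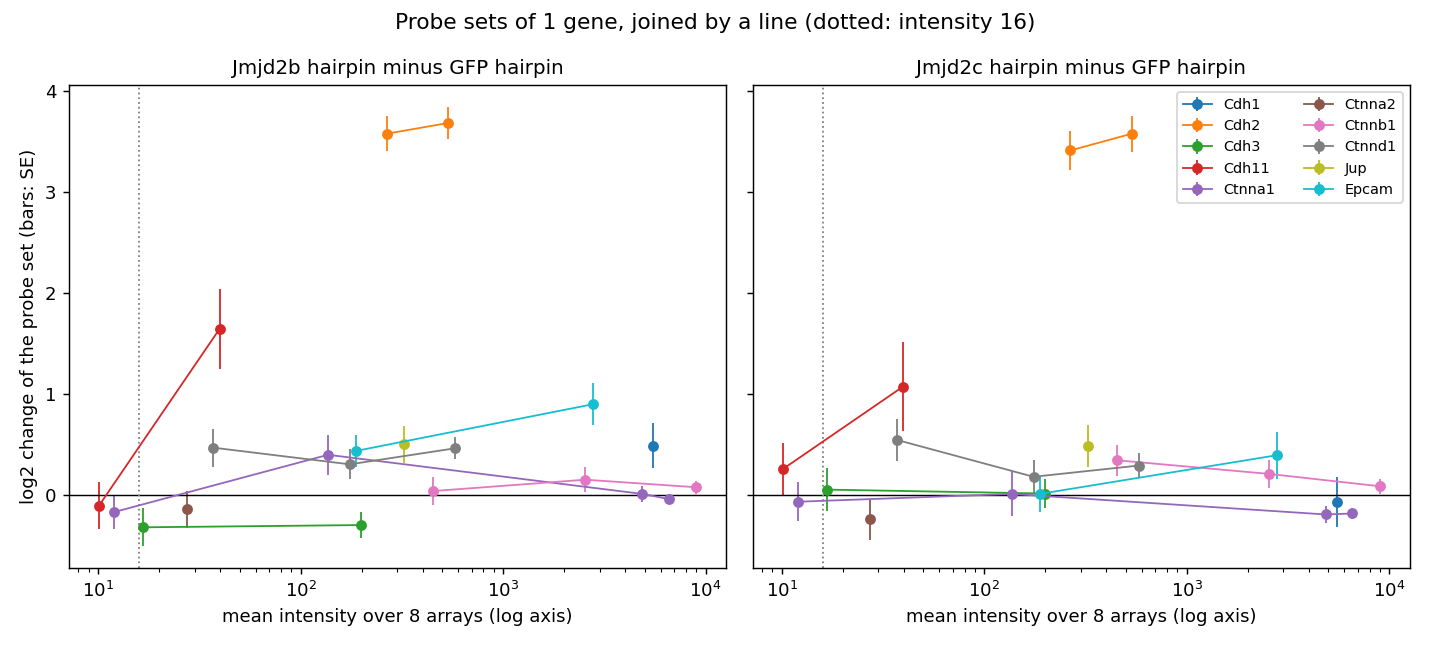
Change against the GFP hairpin of all 21 probe sets of the 10 genes (vertical axis, log2(intensity + 16), bars SE) by mean intensity over the 8 arrays (log axis), with probe sets of 1 gene joined. Both Cdh2 probe sets lie between 3.41 and 3.68, whereas the Cdh11 pair splits, at 1.64 and -0.11 in the Jmjd2b comparison.

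Promoter sequence was at hand for 5 of the 10 genes (7 windows, Ctnna2, Ctnnb1, Ctnnd1, Jup and Epcam, RefSeq, build GRCm38.p6), each from 250 bases before to 50 bases after a transcript start. Those of Epcam and Ctnnd1 are shown because these were the called genes among the 5. The bases before the start are printed 5′ to 3′ on the gene's strand. Capitals mark the letters CAGGTG or its reverse complement CACCTG, the E2-box that Snail and Zeb repressors bind. The Epcam window lies at chr17:87635729-87635978 on the plus strand. Those of Ctnnd1, for its 2 transcript starts, lie at chr2:84658978-84659227 and chr2:84650741-84650990 on the minus strand.
Epcam: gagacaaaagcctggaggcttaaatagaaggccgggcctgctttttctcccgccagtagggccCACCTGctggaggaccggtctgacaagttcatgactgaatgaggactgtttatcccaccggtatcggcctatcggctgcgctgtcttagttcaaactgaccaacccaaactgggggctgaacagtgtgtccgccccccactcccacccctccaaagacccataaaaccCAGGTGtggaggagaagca
Ctnnd1 start 1: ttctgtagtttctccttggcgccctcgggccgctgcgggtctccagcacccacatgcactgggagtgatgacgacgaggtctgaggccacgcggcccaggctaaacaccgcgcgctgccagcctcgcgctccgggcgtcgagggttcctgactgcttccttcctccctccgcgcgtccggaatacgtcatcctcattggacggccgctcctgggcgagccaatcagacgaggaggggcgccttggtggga
Ctnnd1 start 2: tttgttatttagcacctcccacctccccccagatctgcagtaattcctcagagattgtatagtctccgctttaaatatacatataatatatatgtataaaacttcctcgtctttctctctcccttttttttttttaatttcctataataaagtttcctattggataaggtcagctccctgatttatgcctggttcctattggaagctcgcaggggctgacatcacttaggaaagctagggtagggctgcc
The Epcam window held 2 matches, beginning 187 and 19 bases before the start, and the Ctnnd1 windows held 0. Ctnna2, which did not pass, had 1 match, 182 bases before its start. Of 32851 RefSeq promoter windows of this length 20.2% held at least 1 match and 2.88% at least 2. The letters CTTTGAT, or ATCAAAG on the other strand, the core bound by the TCF and LEF partners of beta-catenin, were in 3.73% of windows and in 0 of the 7. These matches describe letters, not bound sites.

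Between the knockdowns none of the 10 genes passed the limma test (0.693% of all genes did, 37 higher and 89 lower in the Jmjd2c knockdown, or 55 and 74 after quantile normalization). Ctnna1 alone had an unadjusted p under 0.05, at a difference of -0.14 (95% interval -0.26 to -0.03). The widest intervals were those of Cdh11 (-0.57, from -1.58 to 0.44), Cdh1, Epcam (-0.51, from -1.03 to 0.02) and Jup (-0.02, from -0.49 to 0.45). For Ctnnd1 the difference was -0.17 (-0.44 to 0.10). A rise that passed in the Jmjd2b comparison and missed in the Jmjd2c comparison is thus not shown to differ between the hairpins.

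Counted by arrays alone, 6 of the 10 genes were higher in every Jmjd2b array than in every control and 2 were lower, beside 21.0% and 23.8% of all genes (44.8% in either direction). In the Jmjd2c comparison the counts were 4 and 2, beside 17.4% and 21.2% (38.6% in either direction). Genes whose Jmjd2c arrays lay above all controls were Cdh2, Cdh11, Ctnnd1 and Jup, and those below were Ctnna1 and Ctnna2. Between the knockdowns 1 gene, Cdh3, was higher and 3, Ctnna1, Ctnnd1 and Epcam, were lower in every Jmjd2c array, beside 13.4% and 13.7% (27.1% in either direction).

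The genes whose pattern over the 8 arrays was most like that of Cdh2, among 9581 brighter genes, were Atp5g1, Mapre2, Rpl14, Nsmaf and Gna12, with Pearson correlations from 0.997 to 0.992. The 8 arrays share their groups, so a gene that stood apart in both knockdowns would score high. These 5 differed from the controls by 0.64 to 1.55 in the Jmjd2b comparison. Among the 10 genes Ctnnd1 was closest to Cdh2, at 0.91. For Cdh1 the closest were Fam91a1 (0.982), Palld (0.964), Crmp1 (0.955), Myrf (0.951) and Foxn3 (0.950). Epcam was closest to Cdh1 among the 10 genes, at 0.79, while Cdh2 stood at 0.33 and the neighbouring Cdh3 at -0.62.

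The surroundings of the junction were described by 11 lists with 156 of 166 genes measured. In the Jmjd2b comparison 43 rose and 13 fell (35.9%, beside 24.4% of all genes). In the Jmjd2c comparison 15 rose and 13 fell (17.9%, beside 9.59%), and between the knockdowns 0 were higher and 3 lower in the Jmjd2c knockdown. Among the 9581 brighter genes, a class that a gene could enter by its rise, 4049 and 2026 were called against the controls. Many list genes are of that class, such as 17 of the 19 plaque genes. The lists were also chosen with earlier results of these data known, so these shares do not show an excess of calls. In each list the called gene with the smallest p in each direction is given below, with a few others. Of the 39 Jmjd2b calls of named list genes 12 were lost without at least 1 array, and 15 of the 28 Jmjd2c calls. All 15 of these were lost without control array 3. With the array set as a block all 28 of these Jmjd2c calls were lost (limma adjusted p = 0.0675 to 0.601), while each kept its direction. That block leaves only an indirect comparison with the controls, by way of the Jmjd2b arrays.

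**Figure D4:**
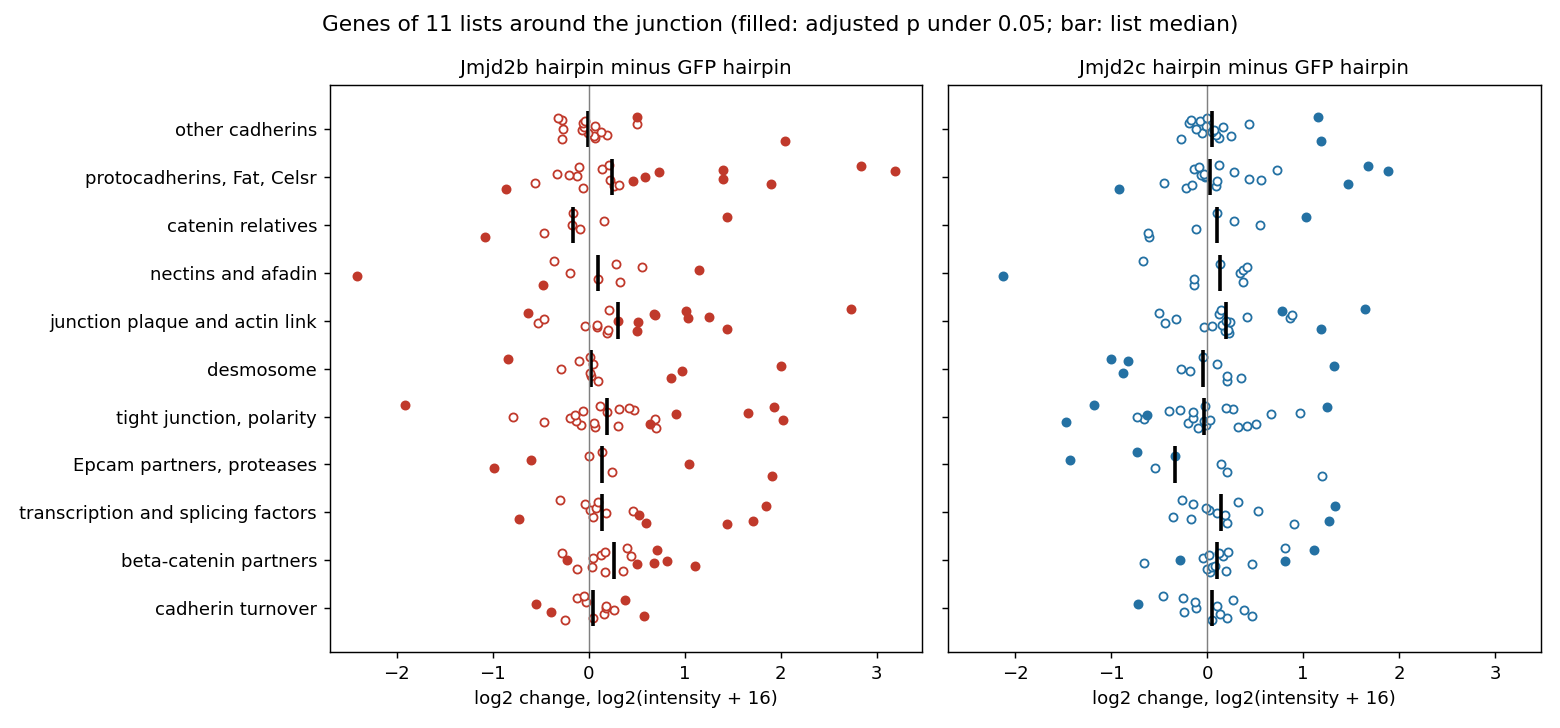
Change against the GFP hairpin of each gene of the 11 lists (1 point per gene, log2(intensity + 16), filled where the limma adjusted p is under 0.05, bar at the list median). The junction plaque row has 9 filled rises and 1 filled fall in the Jmjd2b panel and 3 filled rises in the Jmjd2c panel.

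Among 17 other cadherins 2, Cdh10 and Cdh9, rose in each comparison. Cdh10, a neural cadherin, went from a mean of 14.6 in the controls to 112 in the Jmjd2b and 54.7 in the Jmjd2c knockdown (2.04 ± 0.23 and 1.19 ± 0.26). Its second call was lost without control array 1 (1.09), control array 3 (1.17) or Jmjd2c array 1 (0.88) and as the mean of its probe sets (0.19). Cdh9 went from 24.0 to 41.0 and 72.7 (0.50 ± 0.15 and 1.15 ± 0.16). Its first call was lost without any control or without Jmjd2b array 1 or 2 (all single arrays: 0.41 to 0.63). Among 20 protocadherins and Fat, Dachsous and Celsr cadherins, 8 rose and 1 fell in the Jmjd2b comparison and 3 rose and 1 fell in the Jmjd2c comparison. Pcdh8, a protocadherin of early mesoderm and brain, rose by 2.84 ± 0.21 and 1.67 ± 0.23. Celsr1, which acts in planar polarity, had changes of -0.86 and -0.92, the latter call lost without control array 3 (all single arrays: -1.08 to -0.75).

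Catenin relatives and binders gave 1 rise and 1 fall among 7 in the Jmjd2b comparison and 1 rise in the Jmjd2c comparison. Ctnnd2, the relative of Ctnnd1 known from neurons, rose by 1.44 ± 0.16 and 1.03 ± 0.18, and Armc8 changed by -1.08 ± 0.18 in the Jmjd2b knockdown. The mean of all Ctnnd2 probe sets gave 0.52 in the Jmjd2c comparison, where the call was lost. Of 9 nectin and afadin genes 1 rose and 2 fell, and 0 rose and 1 fell. The nectin Nectin2 rose by 1.15 ± 0.22 in the Jmjd2b knockdown, and the nectin-like adhesion gene Cadm4 changed by -2.42 ± 0.21 and -2.13 ± 0.24.

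Plaque and actin-linking genes of the junction had 9 rises and 1 fall among 19 in the Jmjd2b comparison and 3 rises in the Jmjd2c comparison, with medians of 0.31 and 0.19. Zyx, which gathers at junctions under tension, went from 87.6 to 690 in the Jmjd2b knockdown (2.74 ± 0.26). It also rose in the Jmjd2c knockdown (all single arrays: 1.19 to 2.11). Ajuba, which binds alpha-catenin, went from 1236 to 2834 in the Jmjd2c knockdown (1.19 ± 0.15). In the Jmjd2b knockdown it rose to 3374 (all single arrays: 1.38 to 1.58). Vcl, vinculin, which links alpha-catenin to actin, rose by 1.01 ± 0.12 and 0.78 ± 0.14. Vasp, an actin elongation factor, changed by -0.63 in the Jmjd2b knockdown, a call lost without control array 3 or Jmjd2b array 3 (all single arrays: -0.71 to -0.51).

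Of 11 desmosome genes 3 rose and 1 fell in the Jmjd2b comparison, and 1 rose and 3 fell in the Jmjd2c comparison. Perp rose by 2.01 ± 0.26 and 1.32 ± 0.30, the latter lost without control array 1 or 3 and at 0.70 without Jmjd2c array 2. The plakophilin Pkp3 changed by -0.84 and -0.996, the latter lost without control array 3 (all single arrays: -1.19 to -0.80). Of 23 tight junction and polarity genes 5 rose and 1 fell, and 1 rose and 3 fell. Patj, a polarity scaffold, rose by 1.93 ± 0.27 in the Jmjd2b knockdown. Its Jmjd2c change was 1.25, a call lost without control array 1 or 3, Jmjd2b array 2 or Jmjd2c array 2 (all single arrays: 0.73 to 1.76). Tjp3 changed by -1.92 ± 0.23 in the Jmjd2b knockdown and Cldn4 by -1.46 ± 0.25 in the Jmjd2c knockdown. Tjp3 also fell in the Jmjd2c knockdown, a call lost without any 1 of 3 arrays (all single arrays: -1.29 to -1.02).

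Around Epcam 7 partners and proteases were measured, of which 2 rose and 2 fell in the Jmjd2b comparison and 0 rose and 3 fell in the Jmjd2c comparison. Cd44 rose by 1.91 ± 0.30 and the tetraspanin Cd9, at 4602 in the controls, changed by -0.99 ± 0.16 in the Jmjd2b knockdown. Spint1, an inhibitor of the membrane proteases that cleave Epcam, changed by -1.43 ± 0.20 in the Jmjd2c knockdown. It also fell in the Jmjd2b knockdown, a call lost without any 1 of 5 arrays (all single arrays: -0.75 to -0.39).

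Of 14 transcription and splicing factors known to act on cadherin genes and epithelial state, 5 rose and 1 fell in the Jmjd2b comparison and 2 rose in the Jmjd2c comparison. Twist1, known as an inducer of Cdh2, went from 14.9 to 95.5 and 62.8 (1.84 ± 0.21 and 1.33 ± 0.24), with the second call lost without control array 3 (all single arrays: 1.01 to 1.65). Grhl3, an epithelial factor, changed by -0.73 ± 0.15 in the Jmjd2b knockdown. Other epithelial factors rose. Grhl2 went from 184 to 653 and 459 (1.71 ± 0.23 and 1.27 ± 0.26). Its second call was lost without control array 1 or 3 (all single arrays: 1.12 to 1.44), and both were lost as the mean of its probe sets (0.26 and 0.16). Esrp1, an epithelial splicing factor, went from 471 to 1365 in the Jmjd2b knockdown (1.44 ± 0.38), a call lost without control array 1 or 3 or Jmjd2b array 2 or 3 (all single arrays: 1.06 to 1.72). The repressors of Cdh1 best known from epithelial-mesenchymal transition were looked up after the values were seen. Snai1 (0.18 and 0.10), Snai2 (0.46 and 0.53), Zeb1 (0.10 and 0.32) and Zeb2 (-0.30 and -0.26) did not pass in either comparison.

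Of 16 genes of the beta-catenin destruction complex and its nuclear partners, 5 rose and 1 fell, and 2 rose and 1 fell. Tcf7l1, a repressor partner of beta-catenin in ES cells, rose by 0.72 ± 0.17 and 1.11 ± 0.19. Btrc, a ubiquitin ligase of beta-catenin, changed by 0.82 ± 0.17 in the Jmjd2b comparison, but by 0.21, no longer called, as the mean of its probe sets. Btrc also rose in the Jmjd2c comparison, a call lost without any 1 of 3 arrays (all single arrays: 0.64 to 0.98). Csnk1a1 changed by -0.23 and -0.28, calls that were lost without any 1 of 6 and of 7 arrays and with the replicate block (-0.23 and -0.28). The first was lost without any control or Jmjd2b array (-0.25 to -0.20), and the second without any array but Jmjd2c array 2 (-0.40 to -0.16). Genes of cadherin shedding, cleavage and endocytosis had 2 rises and 2 falls among 13, and 0 rises and 1 fall. Ptpn1, a phosphatase bound to cadherin complexes, had a change of 0.37, lost without control 1 or 3 or any Jmjd2b array (0.32 to 0.45). The protease Pcsk6 had changes of -0.55, lost without control 1 or Jmjd2b 1 (-0.60 to -0.47), and -0.71, lost without any control or Jmjd2c array 2 (-0.82 to -0.60) and with the replicate block (-0.71).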

How the data were processed

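RNA of 8 samples was measured on 1 array each, and groups and replicate numbers came from the sample titles. The authors deposited 1 linear intensity for each probe set, from biotinylated cRNA per the labels' protocols. Their probe summary, background correction, scaling and genome build are not given in the sources used here. Of 45101 probe sets the platform annotation gave 1 symbol for 34945, several for 932 and none for 9160, and 64 were controls. Gene identifiers of 34741 matched RefSeq (GRCm38.p6), used for names, neighbours and promoters. No columns of per-sample values were left unused (0).

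Values became log2(value + 16), with no further scaling or filter, and each gene was represented by its probe set of highest mean. limma 3.58.1 (R 4.3.3; lmFit, eBayes with trend) fitted the 3 group means to all 8 arrays and was tested on simulated data. Tests were two-sided, and the threshold was 0.05. Tables used Python 3.11.15 with pandas 2.3.3, and figures matplotlib 3.10.9. The 10 genes, the lists and the tests were chosen with earlier results of these data known. Named were the 10 genes, Kdm4b and Kdm4c, for Cdh1 and Cdh2 the 5 most alike genes, and of each list up to 3 called genes per direction and knockdown. Of these the text gives values for the 1 with the smallest p and for Vcl, Tcf7l1, Grhl2 and Esrp1. Values in both comparisons were added for Cdh9, Cdh10, Zyx, Ajuba, Tjp3, Spint1 and Btrc. These additions and the markers named singly were chosen after their values were seen.

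Replicate numbers pair control and Jmjd2b arrays by the rule used (deviations of same-numbered arrays correlated at 0.176, 0.111 and 0.116, a pairing seen in the data and not in the labels), and not Jmjd2c and control arrays (0.0408 and 0.0633). Alternatives were the added constant, quantile normalization, a filter, other probe sets, the arrays in the fit, blocks for replicate and array type, and each array left out. Fits with the array set as a block and within types and sets were chosen after seeing the data. The methods of the study's own comparisons and protein sequences were not used here.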

Additional observations from a re-analysis of the deposited data

How the results depend on the processing

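Leaving out 1 array changed the count of all genes called in the Jmjd2b comparison from 4446 to between 2635 and 5630, in the Jmjd2c comparison from 1745 to between 469 and 2935, and between the knockdowns from 126 to between 2 and 804. Of the 10 genes it called 2 to 6, 1 to 3 and 0 to 1. The fewest calls in both control comparisons came without control array 3, and the most in the Jmjd2c comparison without Jmjd2c array 1. With only the groups compared in the fit the Jmjd2c comparison called 876 genes, 2 of them among the 10, and the knockdowns differed in 2 genes. In the Jmjd2c comparison quantile normalization called 2 of the 10, and the fit of the brighter genes alone 2 of the 8 it tested. The array type as a block left 1057 and 6 calls in the Jmjd2c comparison and between the knockdowns. The array set as a block left 9 and 5, and 2 of the 10 genes in the Jmjd2b comparison. Within the arrays with the floor the Jmjd2b comparison called 1178 genes, 2 of the 10. Within those without it the Jmjd2b comparison called 102 genes, 1 of the 10 (Cdh2), and limma called 0 in the Jmjd2c comparison, 0 of the 10, and 0 between the knockdowns, likewise 0 in the set of 3 arrays that share values. These fits use fewer arrays, and against the control 1 side holds a single array.

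Signs of small changes turned. For Ctnna1 in the Jmjd2b comparison the mean of probe sets gave 0.047 and fits without shared-probe sets (names ending in _x_at or _s_at) 0.0076, and for Ctnna2 arrays without the floor gave 0.036. For Cdh3 in the Jmjd2c comparison the array type block gave -0.056 and arrays without the floor -0.068, and for Epcam the array set block gave -0.20. Between the knockdowns Cdh2 was 0.017 without floor arrays, Cdh11 0.59 and Ctnnb1 -0.034 with the array set block and within the set of 3, Ctnnb1 -0.0061 without floor arrays, and Jup 0.024 after quantile normalization and 0.0038 with the array type block. Single arrays left out gave ranges across 0 for Ctnna2 in the Jmjd2b comparison (-0.31 to 0.051), in the Jmjd2c comparison for Cdh1 (-0.57 to 0.43), Cdh3 (-0.073 to 0.059) and Ctnnb1 (-0.0082 to 0.17), and between the knockdowns for Cdh2 (-0.23 to 0.017), Ctnna2 (-0.29 to 0.066), Ctnnb1 (-0.082 to 0.10) and Jup (-0.40 to 0.36). The cause was not tested. Over the 10 genes and all fits 526 values kept direction and side of the threshold and 27 turned, 13 gained and 15 lost a call.

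With the replicate block, that is with arrays paired by number, 4319, 1391 and 150 genes were called in the Jmjd2b, Jmjd2c and between-knockdown comparisons, and no call of the 10 genes changed (Cdh2 3.68 and 3.54). Signal limits Cdh11, whose control values lay below the added 16.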
